A study of Bos taurus with 11 samples.

Results

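Bovine mammary epithelial cells (BMEC) short of lysine (LK) were compared directly with BMEC short of methionine (LM), to ask where the transcriptomes of the 2 deficiencies differed from each other rather than from complete medium (CTL). The comparison rests on 5 RNA-Seq libraries, LK replicates 1, 2 and 3 and LM replicates 1 and 3, out of 11 in the series. It was described across the genes that averaged 200 or more raw counts over these 5 libraries, which were 12724 of the 27607 genes in the deposited table. LM replicate 2, which the study set aside for quality, entered the comparison only as a check of direction and in alternative fits that are named where they are used. The limit of 200 counts applied to the mean over both groups, so a gene low in one group could pass through the other. Among the differentially expressed genes described below, 4 higher and 4 lower in LK averaged under 200 raw counts in the group where they were low.

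The cells were primary epithelial cells grown out of the udders of lactating Holstein cows, used at the third passage and differentiated with insulin, prolactin and hydrocortisone. All groups were kept for 60 h in a medium that held the remaining amino acids at physiological levels, and each deficient medium was low in a single essential amino acid. LK medium held 20 µM lysine and 20 µM methionine, LM medium held 80 µM lysine and 5 µM methionine, and CTL medium held 80 and 20 µM, with 40 µM histidine in each of the 3 media. Low histidine medium (LH) held 10 µM histidine with lysine and methionine as in CTL. Neither deficiency was a complete withdrawal, and cultures were sampled at a single time. Treatments were run in triplicate, and whether replicates came from different cows is not given in the sources used here, so p-values measure the spread between these libraries, which may be technical. As RNA was taken from whole cultures, a change in the share of cells in a given state cannot be told apart from a change of RNA within each cell.

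Lysine and methionine are essential amino acids that limit milk protein synthesis when dairy rations supply too little of them. Both are built into protein, and cells sense a shortage of either through uncharged transfer RNA, which activates the kinase GCN2 and the transcription factor ATF4. Methionine has further duties, since it starts nearly every new protein chain and is converted to S-adenosylmethionine, the methyl donor for DNA, RNA, histones and phospholipids and a precursor of polyamines and cysteine. Lysine has no such methyl donor role, and its free pool serves mainly protein synthesis and breakdown through the saccharopine pathway.

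The table pairs Ensembl identifiers with no gene names, and none of them could be matched to a symbol, so genes are described by identifier, level and pattern. For the same reason the epithelial identity of the cultures and the presence of other cell types were not checked against marker genes, and no pathway was scored.

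Gene counts summed to 243814561 to 253869127 in the LK libraries, and to 257192037 and 220425791 in LM replicates 1 and 3. The genes described here took 99.9% of these reads. Among genes averaging 50 to 100 counts over the retained libraries, 1.22% to 7.51% had no read in the LK libraries. The shares were 23.2% and 12.0% in LM replicates 1 and 3 and 44.2% in LM replicate 2. They were 29.2% and 18.7% in CTL replicates 1 and 2, and 1.99% to 7.62% in the LH libraries. Among the 12724 genes averaging 200 or more counts, LK libraries had no gene without a read. LM replicates 1 and 3 had 4 and 2 such genes, LM replicate 2 had 78, and CTL replicates 1 and 2 had 24 and 8. The median coefficient of variation between replicates was 6.49% in LK and 8.19% in LM. The LM value rests on 2 libraries and the LK value on 3, so the 2 are not directly comparable. The root mean square log2 difference was 0.487 between LM replicates 1 and 3 and 0.291 to 0.33 between LK libraries. It was 0.43 to 0.463 between LM replicate 3 and the LK libraries, and 0.495 to 0.529 for LM replicate 1. LM replicate 3 was thus nearer to each LK library than to LM replicate 1. The 2 CTL libraries differed by 0.665.

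Most genes stood at much the same level under the 2 deficiencies. The middle gene of the 12724 differed by 0.007 on the log2 scale (LK minus LM), 68.4% of genes differed by less than 0.25 and 89.1% by less than 0.5. With edgeR's quasi-likelihood test, 959 genes (7.54%) had a Benjamini-Hochberg adjusted p under 0.05, with 514 genes higher in LK and 445 lower. A fold change of at least 2 in addition, the threshold used for differentially expressed genes (DEG) throughout, was reached by 130 genes, or 1.02% of those described, against 0.861% of all 18345 genes tested. Of the DEG, 54 were higher in LK (0.424%) and 76 lower (0.597%). Another 163 genes differed at least 2-fold without passing the adjusted p, and 829 passed the adjusted p with a smaller difference. Only 16 genes, 15 higher and 1 lower in LK, differed by significantly more than 2-fold when that size was itself the hypothesis tested (glmTreat), so for most of the 130 the difference was not shown to exceed 2-fold.

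Higher and lower DEG lay at different levels by their mean over the 5 libraries compared. LK holds 3 of these 5 libraries, so the direction of a difference enters this level. The 54 genes higher in LK had a median of 4910 mean raw counts and 15 of them averaged 10000 or more. The 76 genes lower in LK had a median of 872, and 1 of them averaged 10000 or more. Among the 2096 genes averaging 200 to 1000 counts, 8 DEG were higher and 42 lower in LK, and among the 6076 genes averaging 1000 to 10000 there were 31 and 33. Standard errors shrank with level, from a median of 0.486 on the log2 scale at 200 to 1000 counts to 0.0609 at 100000 or more. The 374 most abundant genes held a single DEG, although 139 of them (37.2%) passed the adjusted p, 66 higher and 73 lower in LK, with a median absolute log2 difference of 0.154.

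**Figure D1:**
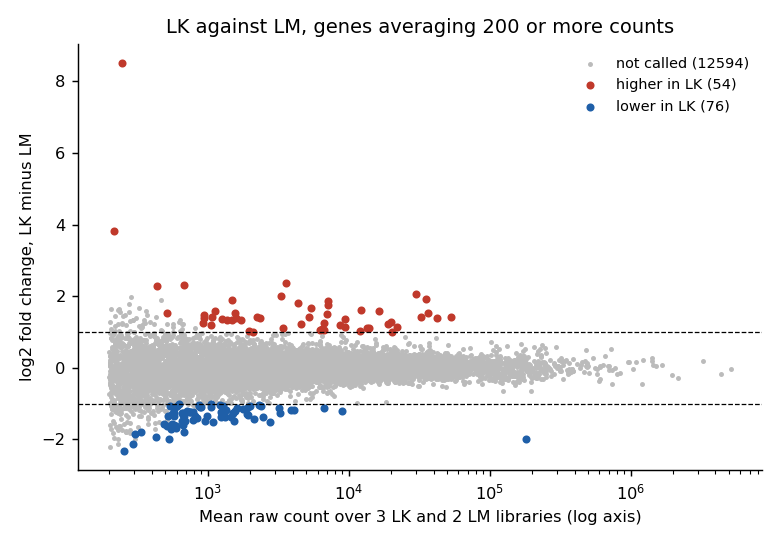
Mean raw count over the 3 LK and 2 LM libraries (log axis) against the log2 fold change of LK minus LM for the 12724 genes, with the 54 DEG higher in LK in red, the 76 lower in blue and dashed lines at 2-fold. Red points reach above 10000 counts, whereas all but 1 of the blue points lie below.

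DEG differed by a median of 1.39 (log2) among those higher in LK, with a median standard error of 0.184, and of -1.29 among those lower, with a median standard error of 0.277. Differences of at least 4-fold were found for 6 genes higher and 2 lower in LK. The normalized counts of the LK and LM libraries did not overlap for any of the 54 higher DEG or for 75 of the 76 lower, whereas 42.5% of all 12724 genes also showed no overlap between these 3 and 2 libraries. The exception had 419, 166 and 311 normalized counts in LK and 1412 and 361 in LM replicates 1 and 3. For 32 of the higher DEG the lowest LK library was more than 2-fold above the highest LM library. For 21 of the lower DEG the lowest LM library stood as far above the highest LK library. DEG were chosen for a difference between these same libraries, and the share over all genes was not taken, so these counts are a description.

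The 2 largest differences with LK above LM rest on few reads in LM. The gene with the largest fitted difference passed the limit of 200 counts only through its LK reads, so it had to differ, and its values are a description. It had 572, 273 and 333 normalized counts in LK and 2 and 0 in LM replicates 1 and 3. From 1232 raw reads in LK and 2 in LM, the ratio was 398, with an exact 95% interval of 110 to 3290. That interval leaves out the spread between libraries and takes each read as independent. The mates of a read pair may have been counted apart, so it may be too narrow even for counting error. LM replicate 2 had 1 normalized count of this gene, and CTL had 4 and 48. The next gene, which also passed the limit only through LK, had 376, 345 and 272 normalized counts in LK and 0 and 47 in LM replicates 1 and 3. CTL had 198 and 341, so LK was near CTL for this gene. LM replicate 2 had 395, so the excluded library stood with LK and not with LM. Below 200 counts, 28 further genes were DEG, 24 of them higher in LK, and 20 had no read in LM replicates 1 and 3. DEG made up 1.02% of the genes described and 0.861% of all genes tested, so their share was smaller below 200 counts. Among the genes of low count described above, LM replicates 1 and 3 had larger shares without a read than any LK library. Nothing is therefore read from the direction of these 28 genes.

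The 2 genes of smallest p-value on either side are described in full. Of these 4, ENSBTAG00000020873 was the one displaced mainly in LM. It had 327743 and 318932 normalized counts in LM replicates 1 and 3, against 68340, 70602 and 103702 in LK. CTL libraries had 69042 and 68182, and LH libraries ranged from 64144 to 68105. All LM libraries were thus far above every other library, LM replicate 2 with 292335 included, and LK replicate 3 was the highest of the rest. The gene was just under 4-fold lower in LK than in LM (standard error of the log2 fold change 0.0826, edgeR adjusted p = 2.54e-28). In this fit it had the smallest p-value of all genes tested. Relative to CTL it rose by 2.24 in LM (log2, standard error 0.0954, edgeR adjusted p = 7.00e-28). In LK the difference from CTL was 0.24 (log2, standard error 0.0838, edgeR adjusted p = 0.0469). This difference came from LK replicate 3, and without that library it was 0.02 (log2, standard error 0.0743, edgeR adjusted p = 0.974). It also missed the threshold without either CTL library (edgeR adjusted p = 0.208 and 0.223) or either LM library (0.128 and 0.146). It was the 1 DEG lower in LK that averaged over 10000 counts.

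ENSBTAG00000007881 showed a graded rise. LK libraries held 49223, 44356 and 50480 normalized counts and LM replicates 1 and 3 held 14466 and 11010. CTL stood at 3423 and 3301, and LH between 16194 and 21023. The 4 groups did not overlap, and LM replicate 2 fell below the other LM libraries at 10159, still above CTL. LK exceeded LM by 1.91 on the log2 scale (standard error 0.102, edgeR adjusted p = 8.32e-23), although LM itself exceeded CTL by 1.92.

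ENSBTAG00000030913 had 43596, 39345 and 40535 normalized counts in LK and 10553 and 9327 in LM replicates 1 and 3. In CTL it had 6822 and 4972, and in LH 16273 to 23061. The LM mean was closer to that of CTL than to those of LK or LH, and LM replicate 2 lay within the LM range at 9386. LK exceeded LM by 2.05 (log2, standard error 0.112, edgeR adjusted p = 1.76e-22) and CTL by 2.80, against 0.75 for LM over CTL.

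ENSBTAG00000013761 fell under both deficiencies, and further in LK. It had 5823, 5434 and 6224 normalized counts in LK, 13029 and 13631 in LM replicates 1 and 3, and 19314 and 19331 in CTL. LH libraries lay between LK and LM, at 10514 to 11733, and LM replicate 2 lay between LM and CTL, at 14673. LK was lower than LM with a log2 fold change of -1.19 (standard error 0.100, edgeR adjusted p = 3.39e-14), a size that did not pass when tested against 2-fold.

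**Figure D2:**
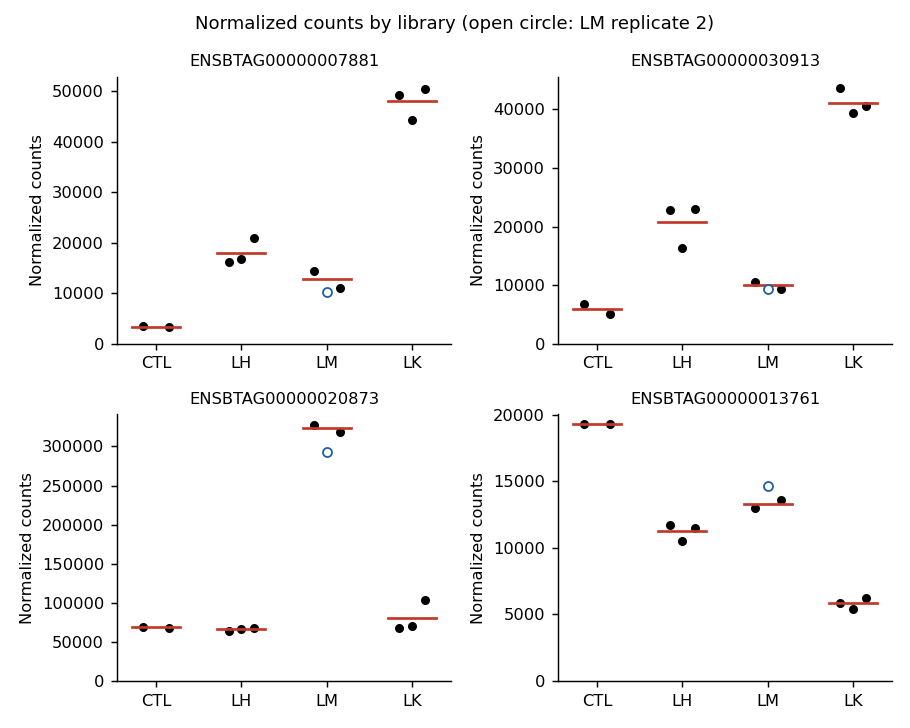
Normalized counts of the 4 genes in each library by medium, with filled points for the libraries tested, red bars for their means and an open circle for LM replicate 2. ENSBTAG00000020873 is high in LM alone, whereas the other 3 genes are displaced from CTL in both LM and LK, and further in LK.

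CTL levels were set beside each DEG to show on which side of the pair the displacement lay. These values share libraries with the comparison that chose the genes and are given as a description. For 97 of the 130 DEG (74.6%) LM lay between CTL and LK, so that LK was displaced the further in the same direction. For 30 DEG (23.1%) CTL lay between LM and LK, and for 3 (2.31%) LK lay between CTL and LM. Among the 11765 genes that did not pass the adjusted p the corresponding shares were 41%, 24.1% and 34.9%. The 829 genes that passed the adjusted p with a difference under 2-fold had another order, with LM between CTL and LK for 38.2%, CTL between LM and LK for 52.8% and LK between CTL and LM for 8.93%.

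The genes higher in LK had a median log2 difference from CTL of 1.90 in LK and 0.48 in LM. Of these 54 genes, 34 were DEG relative to CTL in LK and not in LM, each of them higher, and 11 were DEG in both deficiencies, again all higher. Over all 12724 genes, 1.07% were higher than CTL in LK only and 0.574% in both. As LK takes part in both comparisons, nothing is read from the gap to these shares. The 34 genes had a median of 8020 normalized counts in LK, 3030 in LM and 2100 in CTL, and the 11 genes 10700, 4700 and 1390. The genes lower in LK mirrored this pattern, with median log2 differences from CTL of -1.86 in LK and -0.55 in LM. Of these 76 genes, 55 were DEG relative to CTL in LK only and 14 in both, all of them lower, against 1.63% and 0.503% of all 12724 genes. The 55 genes had medians of 501 normalized counts in LK, 1260 in LM and 1690 in CTL, and the 14 genes 695, 1620 and 3750.

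In all, 68.5% of the 130 DEG passed the thresholds against CTL in LK alone, against 2.7% of all 12724 genes, with 3 LK and 2 LM libraries behind these calls. Among the 959 genes past the adjusted p, with calls against CTL also made on adjusted p alone, the share was 45.6%. For DEG it was 55.6% without CTL replicate 1, 56.2% without LM replicate 3 and 75% without LM replicate 1. No DEG was called in opposite directions in the 2 deficiencies.

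Displacement in LM alone was uncommon. Relative to CTL, 2 genes were DEG in LM and not in LK with higher levels in LM, ENSBTAG00000020873 and a gene averaging 1080 normalized counts in LM, 383 in LK and 349 in CTL. LM replicate 2 had 292335 normalized counts of the former but 418 of the latter, near LK and CTL and away from the retained LM libraries. A further 2 were DEG in LM alone with lower levels there, averaging 23.5 and 580 normalized counts in LM against 331 and 1320 in LK. LM replicate 2 had 395 and 739 normalized counts of these, so the former, already described for its 0 and 47 counts in LM, was not low in that library. Over all 12724 genes, 0.275% were higher and 0.189% lower than CTL in LM only. The remaining 12 DEG, 7 higher and 5 lower in LK, passed the thresholds against CTL in neither deficiency. Each of these 12 had LK and LM on opposite sides of CTL, with log2 differences from CTL of 0.514 to 1.72 in LK and -0.778 to -0.0233 in LM for the 7 higher genes. Both counts moved with single libraries. DEG displaced in LM alone made up 3.08% of the 130, but 8% without LM replicate 1 and 13.6% without LM replicate 3. DEG that passed in neither deficiency numbered 39 and 30 without CTL replicates 1 and 2, and 4 and 30 without LM replicates 1 and 3.

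**Figure D3:**
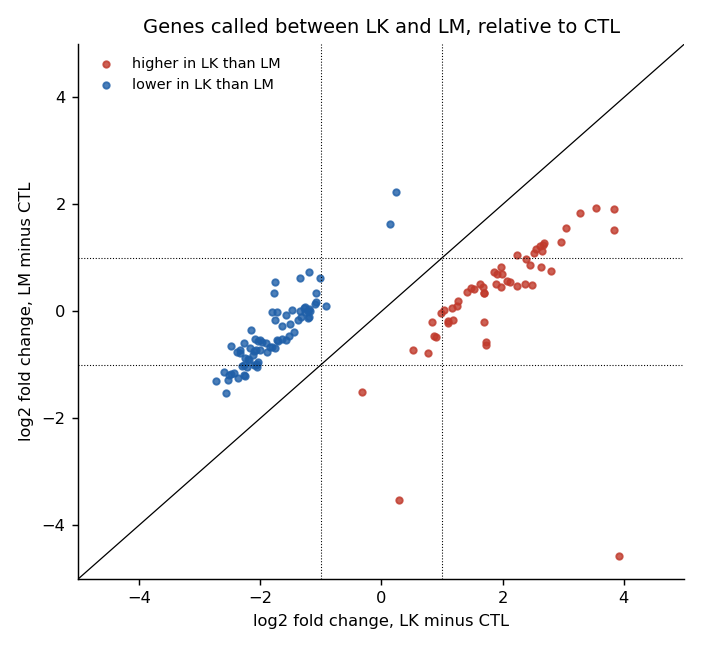
Log2 fold change of LK minus CTL (horizontal) against LM minus CTL (vertical) for the 130 DEG between LK and LM, with a solid line of equality and dotted lines at 2-fold. Most points lie farther from 0 on the LK axis than on the LM axis, and the 2 blue points above the upper dotted line are the genes called higher than CTL in LM alone. Both axes share the CTL libraries.

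The LH mean lay between those of LM and LK for 117 of the 130 DEG (90.0%), against 70.8% of the 829 genes that passed the adjusted p with a smaller difference and 35.6% of the 11765 that did not pass it. Genes chosen for a gap between LK and LM leave a wide interval for another group to fall into, so nothing particular to LH is read from these shares. The LH mean was beyond LM for 11 and beyond LK for 2. All 3 LH libraries lay between the LM and LK means for 94 of the 130 (72.3%). Over the 54 genes higher in LK, the median log2 level relative to CTL was 1.93 to 1.95 in the LK libraries, 0.909 to 1.19 in LH, and 0.607 and 0.406 in LM replicates 1 and 3. Over the 76 genes lower in LK, it was -1.66 to -1.91 in LK, -0.873 to -0.895 in LH, and -0.544 and -0.595 in LM replicates 1 and 3. LM replicate 2 gave 0.351 and -0.857 for the 2 sets, so at the lower genes it stood near the LH libraries.

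**Figure D4:**
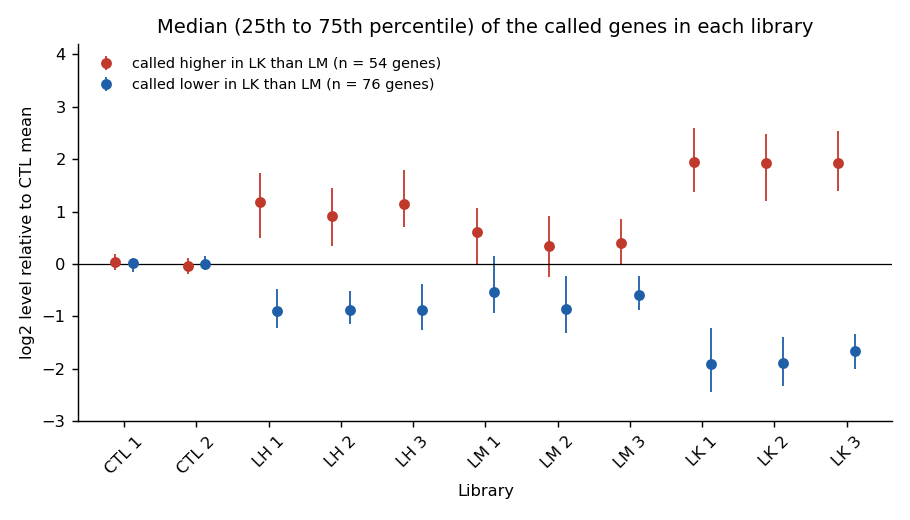
Median and interquartile range, over the 54 DEG higher (red) and the 76 lower (blue) in LK than in LM, of the log2 level in each library relative to the mean of CTL. The LK libraries lie farthest from 0 in both sets, near 1.93 and between -1.66 and -1.91, and LM replicate 2 is drawn beside the other LM libraries.

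LM replicate 2 took no part in the test that called the 130 DEG. It lay on the LM side of the LK mean for 122 of the 130 DEG (93.8%), which was 51 of 54 higher and 71 of 76 lower genes. Among the other 12594 genes it did so for 67.3%. These are genes of a single library that vary together, so the shares carry no error. The LK libraries that chose the genes enter both values, so part of this share follows from the choice. LM replicate 2 lay beyond all 3 LK libraries for 50 of the 54 higher and 64 of the 76 lower genes, against 59.1% of the other genes. At the higher genes it was as far from LK as the retained LM libraries, with a median log2 difference of -1.54 against -1.39, and at the lower genes less far, with 1.10 against 1.29. Of the 8 genes on the wrong side, 5 averaged under 1000 raw counts.

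**Figure D5:**
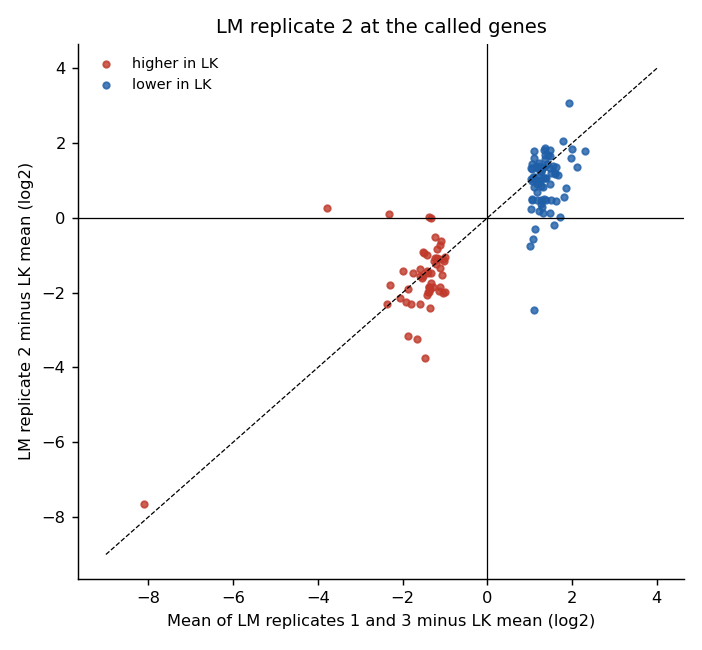
Difference from the LK mean (log2 of normalized counts plus 0.5) of LM replicates 1 and 3, averaged (horizontal), against that of LM replicate 2 (vertical) for the 130 DEG, with a dashed line of equality. The 122 genes at the lower left and upper right have LM replicate 2 on the same side of LK as the other LM libraries.

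The numbers of higher and lower DEG moved with the libraries fitted. With only the LK and LM libraries there were 58 higher and 81 lower DEG, and with LM replicate 2 added to these there were 42 and 22. With LM replicate 2 added to the 10 libraries, CTL and LH included, there were 51 and 81. In the fit of 10 libraries, without LM replicate 1 there were 51 and 49, and without LM replicate 3 there were 81 of each.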

How the data were processed

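The authors deposited raw counts per gene. Reads were cleaned with fastp, aligned with STAR to ARS-UCD1.2 and counted with featureCounts on Ensembl genes by the authors. The kit kept strand, and the sources used here do not give the counting options, so overlapping, antisense and near-identical genes may share reads. Summed counts are given in the report. They exceed the read pairs that the paper reports for each library, so the mates of a pair may have been counted apart. PCR copies were not told apart by molecular identifiers either. Intervals cover counting error only, with each read taken as independent, and may be too narrow.

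Counts of the 10 retained libraries (CTL 2, LH 3, LK 3, LM 2) were fitted with edgeR 4.0.16 in R 4.3.3 by quasi-likelihood, with TMM factors and the 4 media as the only term. Genes with more than 10 reads in sum were tested, and p-values were adjusted over all 18345 by Benjamini-Hochberg. DEG had an adjusted p under 0.05 and a log2 fold change of 1 or more in size. Standard errors come from the F statistic. Normalized counts are counts divided by TMM-scaled library size, times the mean library total, and LM replicate 2 was scaled against the same reference library.

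Members, gene lists and alternatives were chosen with earlier results of these data known. Genes to be named were the 2 higher and 2 lower with the smallest p-values among DEG whose LK and LM libraries did not overlap, the rule for a table without names. The RefSeq table of 37063 genes carried 0 Ensembl identifiers, so 0 identifiers were matched, gene lists and cell type markers were left out, and 0 count columns were unused. Alternatives were DESeq2 1.42.0, other scalings, filters, libraries and thresholds, and the replicate number as a block. Counts were also drawn for 17972 genes with known changes between LK and LM. There edgeR recovered 56 of 67 changes of 1.5, 60 of 67 of 2 and 62 of 66 of 3 (log2). It called 2 unchanged genes of 200 or more counts, against 17 called by DESeq2. The draws used the dispersions that edgeR had estimated, so they do not compare the 2 tools on equal terms. No change under 1.5 was drawn, whereas 35 higher and 58 lower DEG were under 1.5. Figures used matplotlib 3.10.9.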

Additional observations from a re-analysis of the deposited data

How the results depend on the processing

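The number of DEG among genes averaging 200 or more counts was 130 and stayed within 119 to 154 with DESeq2 (154), its size factors, library size only, TMM factors from these genes, filterByExpr, no limit on low counts, only these genes tested, all 11 libraries and only the 5 LK and LM libraries. A like count did not mean the same genes: of the 130, 101 were also called with all 11 libraries, 119 with only these genes tested, 124 with only the LK and LM libraries and 125 with DESeq2, and all 130 had the same sign in each of these 4 fits. Over all tested genes DESeq2 called 310 against 158. With only the LK and LM libraries and LM replicate 2 there were 64 DEG, 22 of them lower in LK. With adjusted p alone there were 959, 514 higher and 445 lower, of which 45.6% passed against CTL in LK only. glmTreat called 16, 15 higher and 1 lower, with LM replicate 2 on the LM side for 100%, and ENSBTAG00000013761 kept its difference of -1.19 without passing. The cause of these shifts was not tested, beyond the threshold itself for the last 2. Adjusted p-values depended strongly on the fit. For ENSBTAG00000020873 the edgeR adjusted p was 5.28e-10 with filterByExpr and 3.57e-204 with no limit on low counts. Its rank among the named genes also changed. The DESeq2 adjusted p was 1.79e-24 for ENSBTAG00000020873 and 3.48e-53 for ENSBTAG00000007881.

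With single libraries left out, DEG ranged from 100 to 162, higher DEG from 49 to 81, lower DEG from 49 to 101, the share called against CTL in LK only from 55.6% to 75%, and the share with LM replicate 2 on the LM side from 90.1% to 95.7%. A lone LM or CTL library was assumed to vary like the other groups. Without LM replicate 1, 49 lower DEG were left. The 4 named genes kept direction and threshold in each of these fits, with ENSBTAG00000020873 between -2.22 and -1.89.

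Replicate numbers are shared by LK and LM, but deviations from group means did not pair (r across genes 0.013 for replicates 1 and -0.006 for replicates 3). With the replicate number as a block there were 131 DEG, 60 higher and 71 lower, and 121 of the 130 were shared. LM replicate 1 was the deepest of the 5 libraries compared and still had more genes of 50 to 100 counts at 0 than any LK library, and the cause was not tested.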
